A study of Drosophila melanogaster with 12 samples.

Results

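The cell division cycle genes described here were 40 listed Drosophila melanogaster symbols, of which 37 were found in the RNA tables of both adult heads and embryos, among 16509 genes listed in both. They fall into 5 roles: 4 G1 cyclins, kinases and their inhibitor, 6 mitotic cyclins and regulators of Cdk1, 9 spindle checkpoint and anaphase genes, 14 origin licensing and MCM helicase genes, and 4 genes of the Rb and E2F family. The other 3 symbols, Cdk1, Cdk2 and wee, stand in the tables under the older names cdc2, cdc2c and Wee1, and their values are given beside the 37 but not counted with them. The study compared what the transcription factor p53 does in non-dividing and in embryonic tissue.

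Wild-type flies were of the yw strain and p53 mutants of the strain p535A-1-4, and each was mock treated or given 40 Gy of ionizing radiation. Heads came from mixed adults of 1 to 2 weeks, with RNA extracted 3 h after irradiation. Embryos were treated at 3 to 4 h of age and their RNA was extracted 1.5 h later. This gives 4 groups per tissue and 8 in all, each a single polyA RNA library, so the differences have no replicate check and no p-value is given. p53-bound chromatin, from both strains and tissues with no radiation given in the labels, made up the other 4 of the 12 samples. The p53 lesion and any other difference between the strains cannot be told apart.

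To divide, a cell first licenses its replication origins: the origin recognition complex (Orc1, Orc2, the Orc3 homologue lat, Orc4, Orc5 and Orc6) and the Cdt1 homologue dup load the MCM helicase, and geminin holds dup in check. Cyclin E with Cdk2 then starts DNA synthesis under control of Rb and E2F proteins, and the phosphatase stg, the fly Cdc25, releases Cdk1 with the mitotic cyclins to drive mitosis. In fly embryos past the blastoderm stage transcription of stg times each mitosis, whereas the adult head is made mostly of differentiated neurons, glia and photoreceptors.

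Depth, read from the smallest steps of the values, was 19000000 to 22800000 fragments per embryo library and 10600000 to 13400000 per head library. A member rested on 550 (Myt1) to 28194 (CycB) fragments in wild-type mock embryos, with a median of 6475, but on 1 (borr) to 1388 (Dp) in heads, with a median of 54. The p53 gene itself was at 25.9 and 54.5 FPKM in mock and irradiated wild-type embryos and at 0.70 and 0.34 FPKM in mutant embryos, and at 11.7, 13.3, 0.532 and 0.549 FPKM in the same order of head libraries. The summed markers of both tissues went with their labels. The summed FPKM of 6 neuronal markers was 940 to 1041 in heads and 59.8 to 68.7 in embryos. That of 10 embryonic patterning genes was 473 to 591 in embryos and 37.2 to 40.0 in heads. Of the neuronal markers elav alone was not higher in heads, at 29.0 to 35.5 FPKM there and 35.6 to 44.9 FPKM in embryos.

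In wild-type mock embryos the 37 genes lay between 16.2 FPKM (Myt1) and 609 FPKM (CycB), with a median of 156 FPKM against 3.28 FPKM for all genes. Their percentiles among all genes of the library ran from 65.7 to 99.1 with a median of 95.8, and 22 of the 37 stood at or above the 90th percentile. In wild-type mock heads they lay between 0.085 FPKM (borr) and 56.9 FPKM (Dp), with a median of 2.52 FPKM against 5.94 FPKM for all genes. There the percentiles ran from 26.2 to 86.1 with a median of 44.6, or 24.2 when ranked only among genes that reached 1 FPKM in any of the 8 groups. In heads 0 of 37 reached the 90th percentile, 26 were below the 50th, and 9 were below 1 FPKM. The median percentile moved little between libraries of a tissue, from 95.4 to 95.8 in embryos and from 43.9 to 46.0 in heads. The tables of both tissues were normalized separately, so levels set across them are descriptions, and in bulk tissue fewer cells of a type and less RNA per cell cannot be told apart.

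**Figure D1:**
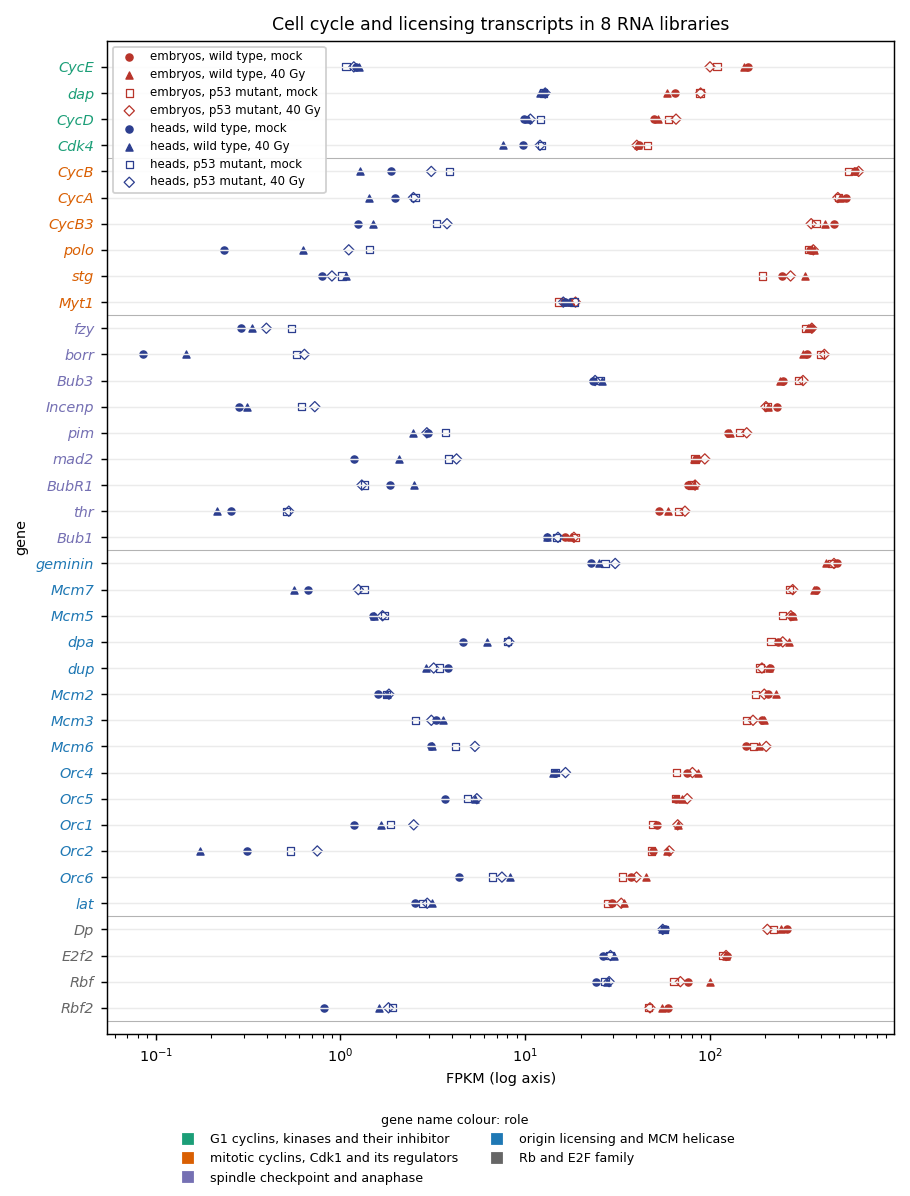
FPKM of the 37 genes on a log axis in the 4 embryo and 4 head libraries, grouped by role, 1 point per library. Most genes sit far higher in embryos, whereas Myt1 and Bub1 sit at nearly the same FPKM in both tissues.

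The embryo-to-head FPKM ratio of the wild-type mock libraries ranged from 0.979 for Myt1 to 3962 for borr, with a median of 50.8. It was at least 100 for 14 of the 37 genes, below 10 for 10 genes and below 2 for 2 genes. The ratio differed by role. Mitotic cyclins and Cdk1 regulators had the highest median ratio at 318, followed by spindle checkpoint and anaphase genes at 71.7 and licensing genes at 50.7. The G1 group had a median ratio of 5.09 and the Rb and E2F family one of 4.63.

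Among the mitotic genes, polo, the Polo kinase that acts throughout mitosis, was 1504 times higher in embryos. The cyclins CycA, CycB and CycB3, which activate Cdk1, differed by ratios of 276, 325 and 375. stg had a ratio of 310, and cdc2, the kinase Cdk1 itself, one of 209. Against these, Myt1, a kinase that inhibits Cdk1, was at 16.2, 17.6, 15.2 and 18.7 FPKM in wild-type mock, wild-type irradiated, mutant mock and mutant irradiated embryos. In heads it was at 16.5, 17.4, 18.4 and 16.1 FPKM in the same order, which is kept for all values of 4 libraries below. The ranges of the 2 tissues overlap for Myt1. Wee1, the other inhibitory kinase of Cdk1, was likewise at 36.2 FPKM in embryos and 36.6 FPKM in heads, a ratio of 0.992. The locus listed for Wee1 is longer than the annotated gene, so fragments may have been divided with a neighbouring gene. For Myt1 the listed locus and the annotated gene are the same. Thus the activators of Cdk1 listed here were over 100 times lower in FPKM in heads. Both of its inhibitory kinases were near equal in FPKM, with that limit for Wee1.

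Of the spindle checkpoint and anaphase genes, borr and Incenp, partners of Aurora B in the chromosomal passenger complex, had ratios of 3962 and 826. The borr ratio rests on 1 head fragment. fzy, the Cdc20 activator of the anaphase-promoting complex, had a ratio of 1232, and thr, a subunit of the fly separase complex, one of 208. The checkpoint kinase Bub1 differed far less, at 16.4, 17.6, 18.8 and 18.4 FPKM in embryos and 13.2, 13.2, 14.9 and 15.1 FPKM in heads, a ratio of 1.24. Its groups do not overlap between tissues but lie close together. Bub3, which binds Bub1 and BubR1, was at 249 FPKM in embryos and 23.2 FPKM in heads, a ratio of 10.8.

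Within licensing, the MCM subunits Mcm7, Mcm5 and Mcm2 had ratios of 565, 185 and 130, and Orc2 one of 157. Orc4 and Orc6, also subunits of the origin recognition complex, had ratios of only 5.18 and 8.55. Subunits of the same complex therefore differed by over 10 times in this ratio, although Orc2 rests on 6 head fragments. The loci listed for Orc2, Orc4 and Orc6 are also longer than the annotated genes, so fragments may have been divided with neighbouring genes. geminin was among the most abundant members in both tissues, at percentile 98.9 in embryos and 69.0 in heads. In the G1 group, CycE, the cyclin that starts DNA synthesis, had a ratio of 133. Cdk4, CycD and dap, the last an inhibitor of CycE-Cdk2 kinase, had ratios of 4.26, 5.06 and 5.11. Dp, the dimer partner of E2F, was the highest member in heads, at 56.9, 55.3, 56.9 and 55.6 FPKM, and stood at percentile 86.1 there. E2f2, the repressor E2F, stood at percentile 72.2 in heads and the retinoblastoma homologue Rbf at 70.3. Rbf2, the other Rb-family gene, stood apart from them with a ratio of 73.5.

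**Figure D2:**
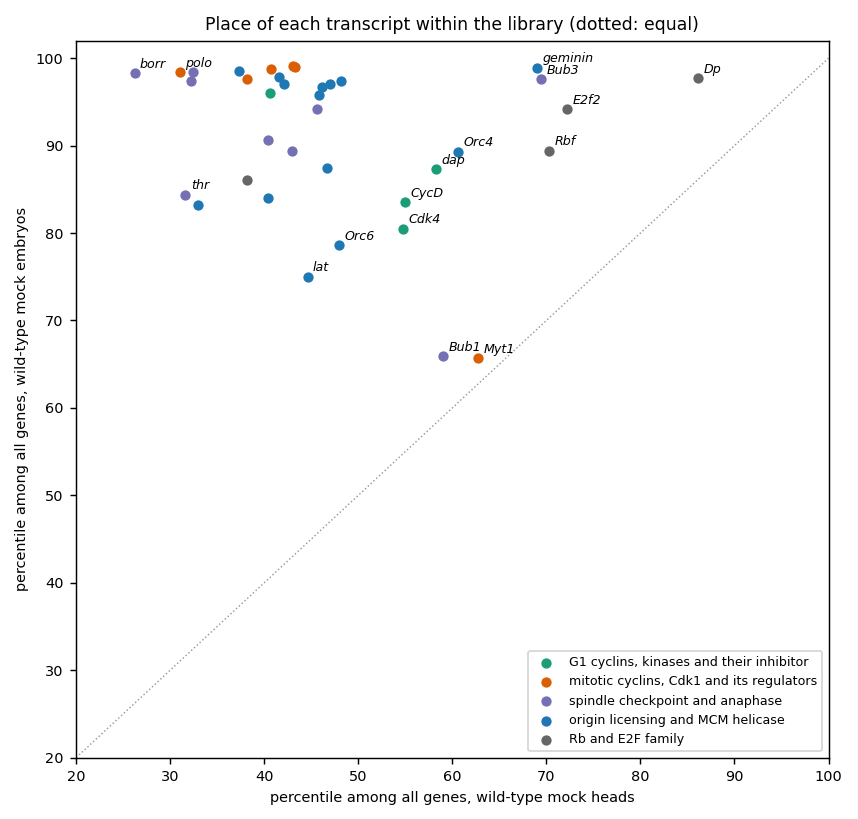
Percentile of each of the 37 genes among all genes of the wild-type mock library, with heads on the x axis and embryos on the y axis, 1 point per gene coloured by role and a dotted line where both are equal. Embryo percentiles run from 65.7 to 99.1 and head percentiles from 26.2 to 86.1.

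Differences between libraries of a tissue are differences of log2(FPKM + 1), counted at 2-fold among genes that reached 1 FPKM in any of its 4 libraries. In embryos all 37 members passed that filter. In heads 32 did, and fzy, thr, Incenp, borr and Orc2 never reached 1 FPKM. Since polo and Mcm7 reached 1 FPKM only in the 2 mutant head libraries, no head count over the 32 is support for a direction. Intervals of an FPKM ratio cover the counting error of fragments only, at 95%.

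After irradiation of wild-type embryos no member was higher or lower by 2-fold, against 1.32% of all genes higher and 0.892% lower. None passed 1.5-fold either, which 6.31% of all genes did. The shares of all genes, here and below, were not matched for level, and the members stood at a median percentile of 95.8 in wild-type mock embryos. A lower share among members was not tested apart from their level. The differences ran from −0.20 (geminin) to 0.40 (stg and Rbf) with a median of 0.03, against 0.02 for all genes. In p53 mutant embryos again 0 of 37 passed 2-fold, against 1.02% higher and 0.948% lower, and 0 passed 1.5-fold, against 4.93%. There the differences ran from −0.18 to 0.50 with a median of 0.11, against 0.04 for all genes.

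Below those thresholds the origin recognition complex stood on 1 side. All 6 subunits were higher in irradiated embryos of both strains, by 0.11 to 0.38 in wild type and by 0.21 to 0.45 in the mutant. Orc1 was at 51.9, 67.7, 48.7 and 67.0 FPKM, so both irradiated libraries lay above both mock libraries. Its FPKM ratio was 1.30 (interval 1.24 to 1.37) in wild type and 1.37 (1.31 to 1.44) in the mutant. Orc2 was at 49.1, 58.5, 48.4 and 60.3 FPKM, with ratios of 1.19 (1.12 to 1.27) and 1.25 (1.17 to 1.32). Orc6, the smallest subunit, was at 37.2, 45.2, 33.6 and 40.1 FPKM, with ratios of 1.21 (1.09 to 1.36) and 1.19 (1.07 to 1.33). lat was at 29.4, 34.3, 28.1 and 33.1 FPKM. Orc4 and Orc5 showed the same order, at 75.4, 86.0, 66.0 and 80.5 FPKM and at 65.7, 71.0, 64.9 and 75.4 FPKM. For 5 of the 6 (all but lat) the locus listed in the table is longer than the gene in the Ensembl 115 annotation, as it is for 15 of the 37 members, so fragments may have been divided with a neighbouring gene.

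The string phosphatase gene stg had the largest difference of the 37, at 247, 327, 194 and 274 FPKM. Its ratio was 1.32 (1.29 to 1.35) in wild type and 1.41 (1.38 to 1.45) in the mutant, again with both irradiated libraries above both mock libraries. Myt1, which acts against stg on Cdk1, was among the larger differences in the mutant, with a ratio of 1.24 (1.11 to 1.38). Over all genes above 0 in embryos, 10.6% had both irradiated libraries above both mock libraries. Of the 37 members 12 did, namely the 6 ORC subunits, the MCM subunits Mcm6 and dpa (the fly Mcm4), stg, Myt1, polo and BubR1. The opposite order held for 10.1% of all genes and for 1 member, Cdk4. By role this was 8 of 14 licensing genes, 3 of 6 mitotic genes, 1 of 9 checkpoint genes and 0 of 4 in each of the other groups. The mitotic cyclins CycA, CycB and CycB3 differed by −0.15 to −0.01 in irradiated wild-type embryos, and the licensing group had a median of 0.16 in wild type and 0.21 in the mutant. Over the same libraries the summed FPKM of 11 germline and maternal markers was 138, 171, 238 and 280, and that of the patterning genes 591, 574, 517 and 473. The part of these marker shifts in the small differences was not tested.

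Rbf differed between the strains in its response. It was at 76.2, 101, 64.0 and 69.3 FPKM in embryos, with only the wild-type irradiated library set apart, and its ratio was 1.32 (1.28 to 1.37) in wild type and 1.08 (1.04 to 1.13) in the mutant. The wild-type minus the mutant difference, the p53-dependent part, was 0.29 for Rbf, the highest of the 37. The lowest was −0.25 for geminin, at 486, 424, 454 and 470 FPKM. mad2, CycB and Myt1 followed it at −0.22, −0.18 and −0.17. All 6 mitotic genes were on the negative side, by −0.18 to −0.01. No member was called p53-dependent at 2-fold, against 0.873% of all genes higher and 0.460% lower, or at 1.5-fold, against 3.41%. The median over members was −0.07, against −0.01 for all genes.

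**Figure D3:**
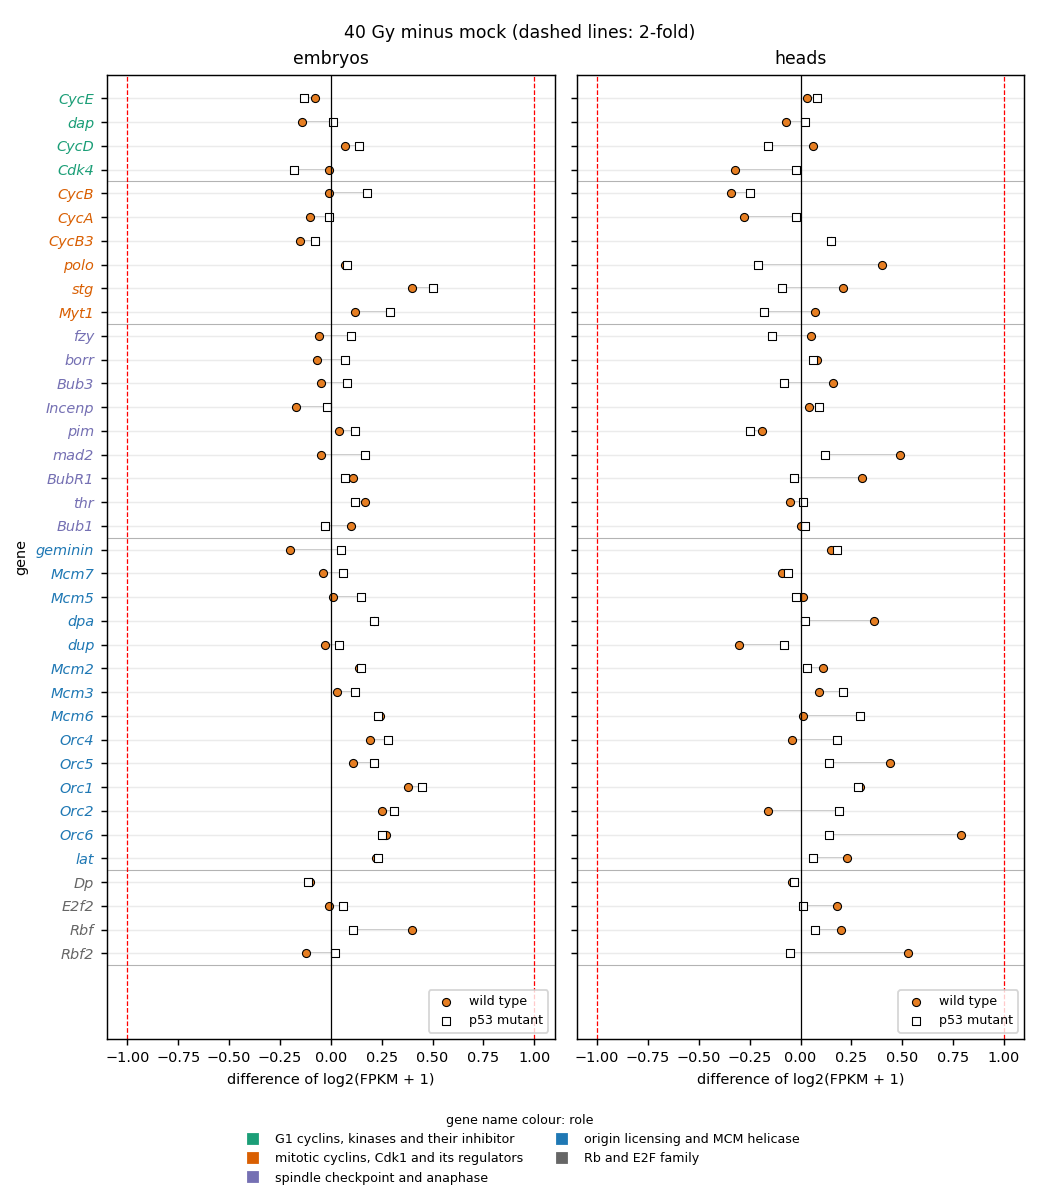
Difference of log2(FPKM + 1) between irradiated and mock libraries for each of the 37 genes in embryos and in heads, with wild type as circles and the p53 mutant as squares and dashed lines at 2-fold. The ORC genes lie right of 0 in embryos of both strains, and Orc6 in wild-type heads is the point nearest to a 2-fold line, at 0.79.

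Between the strains, mock-treated embryos also had 0 of 37 members past 2-fold, against 4.94% of all genes higher in the mutant and 2.44% lower. At 1.5-fold it was again 0 of 37, against 17.7%. In irradiated embryos 0 passed 2-fold, against 6.43% higher and 3.05% lower. At 1.5-fold there were 2, dap higher and CycE lower, a share of members below the 23.5% of all genes. The G1 regulators CycE and dap, which act against each other, thus marked both ends of the list. CycE was at 162, 153, 109 and 100.2 FPKM, so both mutant libraries lay below both wild-type libraries. Its mutant-to-wild-type ratio was 0.677 (0.658 to 0.697) in mock and 0.655 (0.637 to 0.674) in irradiated embryos. dap was at 64.9, 58.9, 88.5 and 89.2 FPKM, with ratios of 1.36 (1.30 to 1.43) and 1.51 (1.45 to 1.59). cdc2c, the kinase Cdk2 that both of them act on, was at 119, 124, 85.6 and 89.4 FPKM, with a mock ratio of 0.717 (0.676 to 0.762).

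In mock embryos 27 members were lower in the mutant and 10 higher, with a median of −0.10 against −0.01 for all genes. In irradiated embryos the median was −0.02 against 0.01. All 4 Rb and E2F genes were below wild type in both treatments, with no overlap of the libraries. Rbf2 was at 59.7, 54.9, 46.6 and 47.4 FPKM and Rbf had a ratio of 0.687 (0.663 to 0.712) in irradiated embryos, but E2f2, at 0.995 (0.953 to 1.04), lay within counting error there. stg was also lower, with a mock ratio of 0.784 (0.763 to 0.805). The licensing genes were lower in the mutant in 13 of 14 cases in mock embryos, against 5394 of all 10654 genes tested, and in 10 of 14 in irradiated embryos, with a median of −0.07. Mcm7 was the lowest of them in mock embryos, at 376, 366, 269 and 281 FPKM and a ratio of 0.715 (0.699 to 0.732). Orc2, Orc5, Orc6 and lat, counted as lower in mock embryos, lay within counting error there. The checkpoint and anaphase genes leaned the other way, with 6 of 9 higher and a median of 0.19. Among them Bub3 was at 249, 241, 302 and 320 FPKM, and the securin gene pim at 125, 128, 145 and 158 FPKM. thr was at 52.8, 59.4, 67.5 and 73.4 FPKM, and borr at 337, 320.1, 396 and 417 FPKM. Both mutant embryo libraries lay above both wild-type libraries for 29.4% of all genes and 7 of 37 members (CycD, dap, Bub1, Bub3, pim, thr and borr), and below for 28.8% of all genes and 13 of 37 members. Neither share of members stands far above that of all genes.

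In wild-type heads no member passed 2-fold after irradiation, against 1.52% of all genes higher and 0.487% lower. With a pseudocount of 0.1 FPKM in place of 1 FPKM, polo did, at 1.12 in place of 0.40. At 1.5-fold 1 of the 32 passed, Orc6, against 4.82%. Orc6 was at 4.36, 8.24, 6.69 and 7.48 FPKM in heads, so the wild-type mock library was the low one and the other 3 lay together. Its wild-type ratio was 1.89 (1.28 to 2.84), from 38 to 91 fragments. Rbf2 had a similar order, at 0.812, 1.62, 1.91 and 1.82 FPKM. mad2, the checkpoint protein that binds fzy, followed it at 1.18, 2.08, 3.84 and 4.25 FPKM, where the radiation ratio of 1.75 had an interval of 0.785 to 4.96. Orc5 had a ratio of 1.46 (1.05 to 2.02) and polo one of 2.69 (1.08 to 8.38), the latter from 6 and 21 fragments. The median difference was 0.10 over the 32 members, against 0.01 for all genes tested. With no filter on low values it was 0.07 over all 37, against 0.0 for all genes above 0.

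In mutant heads 0 of 32 passed 2-fold after irradiation, against 0.637% higher and 0.731% lower, and 0 passed 1.5-fold, against 4.38%. The differences ran from −0.25 (CycB and pim) to 0.29 (Mcm6), with a median of 0.01 against −0.04. Mcm6 was the only member of 37 whose counting interval lay above 1, at 1.28 (1.02 to 1.62). Orc1 was at 1.33 (0.965 to 1.86) and polo at 0.771 (0.477 to 1.25). No member was p53-dependent in heads at 2-fold, against 1.29% of all genes higher and 0.319% lower, although polo reached 1.47 with the pseudocount of 0.1 FPKM. Orc6 alone passed 1.5-fold, by 0.64, against 3.65%, with polo, Rbf2, mad2 and dpa at 0.61, 0.58, 0.38 and 0.34. Both irradiated head libraries lay above both mock libraries for 8.95% of all genes and 6 of 37 members (Mcm2, Orc5, Orc6, lat, Rbf and E2f2). They lay below for 9.05% of all genes and 3 of 37 members (pim, dup and Dp).

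Between the strains, mock-treated heads had the only member past 2-fold in any of the 10 comparisons. It was mad2, higher in the mutant by 1.15, with a ratio of 3.25 (1.57 to 8.63) from 34 against 8 fragments. This was 1 of 32 members, against 4.33% of all genes higher and 3.26% lower. The locus listed for mad2 is longer than the annotated gene, so fragments may have been divided with a neighbouring gene. At 1.5-fold 6 members were higher (mad2, polo, CycB3, CycB, dpa and Rbf2) and none lower. Of all 10672 genes tested 1055 were higher and 864 lower, or 18.0% in either direction. In irradiated heads 0 passed 2-fold, against 3.79% higher and 4.31% lower. There 5 members were higher (CycB3, CycB, mad2, Mcm6 and Cdk4) and 1 lower (BubR1) at 1.5-fold. Of all 10672 genes tested 956 were higher and 995 lower, or 18.3% in either direction. These head counts depend on the pseudocount: with 0.1 FPKM in place of 1 FPKM, 5 members passed 2-fold in mock and 4 in irradiated heads, CycB and CycB3 among them in both.

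Mitotic cyclins were among the members with the largest differences between the strains in heads. CycB3 was at 1.25, 1.50, 3.32 and 3.78 FPKM, and both mutant libraries lay above both wild-type libraries. Its ratio was 2.65 (1.80 to 4.09) in mock and 2.52 (1.78 to 3.58) in irradiated heads. CycB was at 1.87, 1.27, 3.88 and 3.10 FPKM, with ratios of 2.07 (1.49 to 2.99) and 2.44 (1.65 to 3.59). CycA was at 1.97, 1.44, 2.54 and 2.48 FPKM, and its mock ratio of 1.29 had an interval of 0.910 to 1.85. polo was at 0.233, 0.626, 1.44 and 1.11 FPKM, where the wild-type mock library held 6 fragments. cdc2, the partner of these cyclins, was at 1.53, 2.06, 1.16 and 1.44 FPKM and did not show their order. It rests on only 15, 26, 14 and 15 fragments, so its own order is uncertain. All 6 genes of the mitotic group were above wild type in mock heads, with a median of 0.51, and 4 of 6 in irradiated heads, where stg and Myt1 were at −0.13 and −0.10. These counts include polo, which reached 1 FPKM only in the mutant head libraries, so they are descriptions. Wee1, like cdc2 outside the 37 members, was lower in mutant heads, at 36.6, 36.0, 31.5 and 33.2 FPKM.

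The MCM subunits Mcm6 and dpa were also higher in mutant heads, at 3.08, 3.12, 4.18 and 5.35 FPKM and at 4.60, 6.20, 8.03 and 8.17 FPKM. BubR1, a checkpoint protein, was the member that was lower, at 1.85, 2.51, 1.35 and 1.30 FPKM, with a ratio of 0.521 (0.383 to 0.701) in irradiated heads. Both mutant head libraries lay above both wild-type libraries for 20 of 37 members, against 29.9% of all genes, and below for 3 (CycE, BubR1 and Mcm3), against 27.1%. The 20 include the 5 members that never reached 1 FPKM in heads. With no filter on low values the median difference over all 37 members was 0.25 in mock and 0.11 in irradiated heads. All genes above 0 had medians of 0.03 and 0.0.

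Marker levels also differed between the head libraries. The summed FPKM of 10 testis markers was 4.86, 3.68, 71.4 and 77.7, of which Tektin-C alone made up 0.880, 0.379, 69.0 and 72.8, and the testis genes Mst84Da, Mst84Db and comr were at 0 in all 4. Germline and maternal markers summed to 55.2, 53.1, 57.2 and 58.2, and 10 ovary and eggshell markers to 5.43, 4.42, 4.47 and 14.2. Photoreceptor markers summed to 12366, 11508, 11546 and 10399, and 6 glial markers to 1041, 1009, 932 and 892. Among the glial markers alrm was at 78.3, 89.8, 43.0 and 51.3 FPKM and repo at 35.8, 35.0, 21.9 and 26.7 FPKM in heads. Eaat1 was also lower in mutant heads, at 161, 150, 128 and 121 FPKM. The strains overlapped for Gs2, at 639, 606, 610 and 563 FPKM, and for moody, at 53.3, 56.9, 54.7 and 54.7 FPKM. nrv2 was slightly higher in the mutant, at 72.7, 71.0, 74.9 and 74.6 FPKM. The part of these in the member differences was not tested. Tektin-C was higher in mutant embryos as well, at 1.30, 2.17, 37.3 and 41.3 FPKM, where the glial markers summed to 157, 160, 224 and 229.

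**Figure D4:**
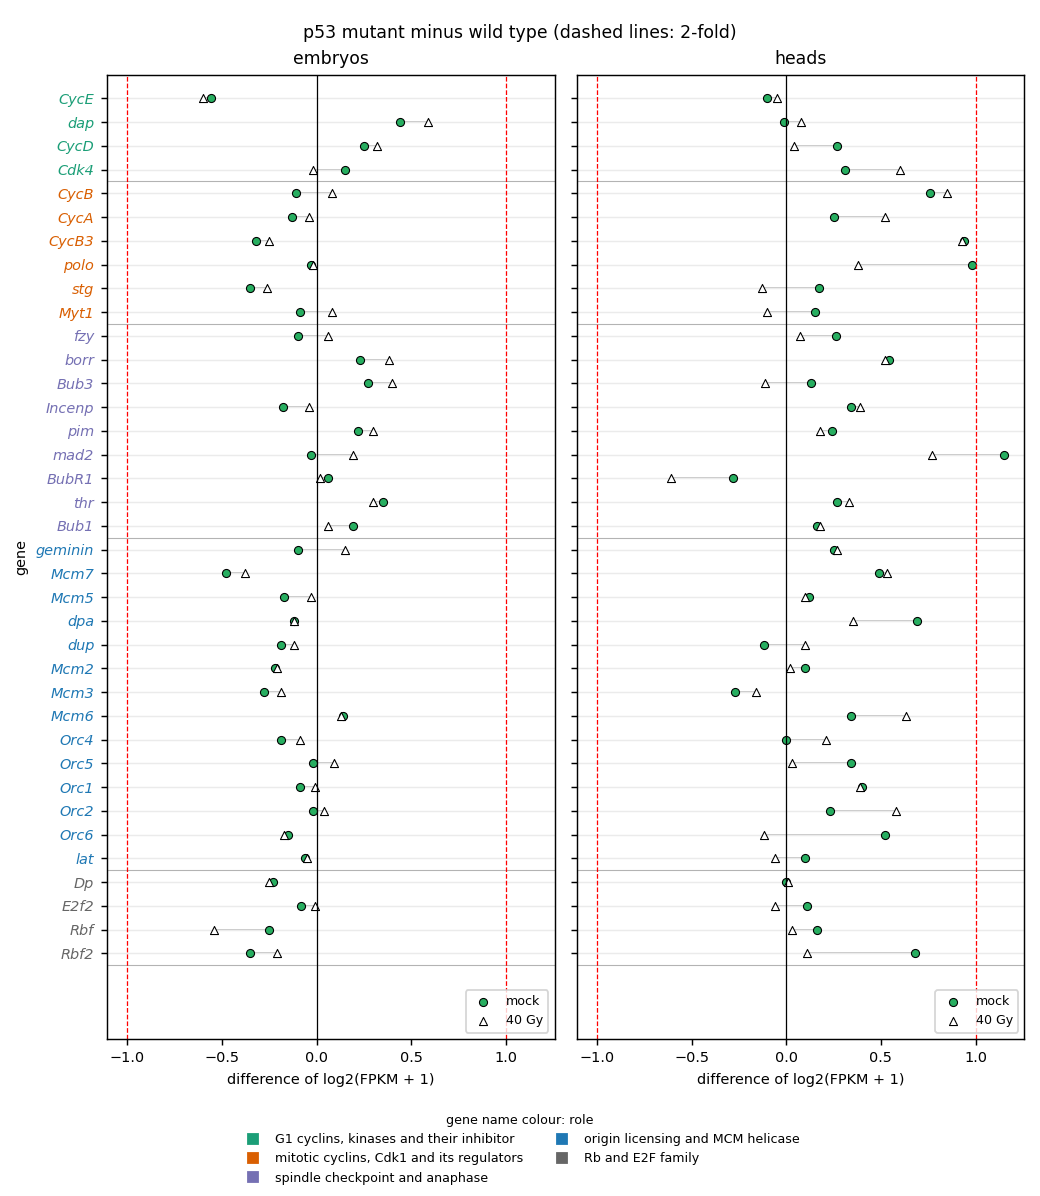
Difference of log2(FPKM + 1) between p53 mutant and wild type for each of the 37 genes in embryos and in heads, with mock libraries as circles, irradiated libraries as triangles and dashed lines at 2-fold. CycE and dap lie at opposite ends in embryos, and mad2, polo, CycB3 and CycB lie farthest right in heads, with mad2 past 2-fold at 1.15.

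Further genes of the same processes were looked up from lists of other replication genes (30 found of 44 symbols) and other mitosis genes (57 found of 68 symbols, both lists with alternative names). In embryos the replication list had a median radiation difference of 0.16 in wild type, with 23 of 30 above 0 against 53.4% of all genes, and 0.21 in the mutant, with 28 of 30 against 58.1%. The mitosis list had medians of −0.03 and −0.06, and all genes had medians of 0.02 and 0.04. In heads 26 replication genes were tested, with a median radiation difference of 0.24 in wild type and 0.17 in the mutant, against 0.01 and −0.04 for all genes. The 48 mitosis genes tested in heads had medians of 0.05 and 0.00. The only gene of either list past 2-fold after irradiation was RnrL, the large subunit of ribonucleotide reductase, in wild-type heads, at 2.63, 9.16, 4.66 and 6.63 FPKM.

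Between the strains 2 of 57 mitosis genes were higher and 1 lower by 2-fold in mock embryos and again in irradiated embryos, and 0 of 30 replication genes in either. In heads each list had 1 gene higher and 1 lower in both treatments, of 26 replication and 48 mitosis genes tested. The shares of all genes are those given above for these 4 comparisons. Sse, the separase protease with which thr acts, was lower in mutant embryos by 1.02 and 1.10 on the log2 scale, at 28.9, 28.1, 13.8 and 12.6 FPKM, whereas thr was higher there. twe, the second fly Cdc25, was higher by 1.45 in mock and 1.04 in irradiated embryos, at 7.78, 13.2, 23.0 and 28.1 FPKM, and stg was lower in both. mtrm, an inhibitor of polo in oocytes, was at 3.13, 1.55, 8.10 and 8.46 FPKM in embryos. Germline and maternal markers summed to 138, 171, 238 and 280 FPKM over the same embryo libraries. The part of this marker shift in the embryo strain differences, those of the members included, was not tested. In heads ial, the Aurora B kinase that binds Incenp and borr, was at 3.43, 5.22, 0.480 and 1.01 FPKM, against the order of both partners. RPA2, a subunit of the single-strand binding protein of replication, was at 6.96, 14.1, 20.3 and 20.4 FPKM and passed 2-fold in mock heads, by 1.42. The other genes past 2-fold in heads stayed below 5 FPKM in all 4 libraries. They were Psf1, a subunit of the GINS complex of the replicative helicase (−1.35 in mock and −1.46 in irradiated heads), mtrm (1.11 and 1.00) and PCNA, the sliding clamp (1.35 in irradiated heads). mtrm reached 1 FPKM in heads only in the mutant libraries and Psf1 only in the wild-type ones. Both were tested only through the libraries where they were high, so the head counts of these lists are descriptions.

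The deposited peak lists hold 135 peaks in embryos and 392 in heads, each with the authors' fold of chromatin from wild type over that from the mutant. A peak summit lay within 5 kb of the listed locus of 2 of 37 members in embryos, against 1.88% of all genes, and of 2 of 37 in heads, against 7.0%. Only 1 of these 4 lay within 5 kb of an annotated start of the member. It was the head peak near CycD, the G1 cyclin partner of Cdk4, at X:15911845-15912363 of dm6, with a fold of 13.0 and a −log10 q-value of 177. Its summit was 2395 bp from the CycD start, but it lies inside Lrp4, whose start is 704 bp away. CycD was at 9.88, 10.4, 12.1 and 10.7 FPKM in heads and passed no threshold in any head comparison. The head peak credited to Orc2, at 3R:14024603-14025605, lay 60267 bp from the Orc2 start and inside rdx, whose start is 810 bp away. In embryos the peak near dpa (2R:7492616-7492893, fold 3.11) was 7089 bp from the dpa start and 199 bp from that of Coop. The one near dup (2R:15373315-15373652, fold 2.13) was 7214 bp from the dup start and 1880 bp from that of Pms2. For the other members the nearest summit lay from 16608 bp (stg) to 2485272 bp (Myt1) from an annotated start in embryos.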

How the data were processed

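For each tissue the authors deposited a table of Cuffdiff FPKM, per the file headers and the submitters' processing notes, with a value per gene for every group. These tables also hold the authors' log2 fold changes, which differed from those computed here by at most 0.0167. Per the submitters' processing notes, reads passed through cutadapt, TopHat2, Picard and SAMtools for RNA and Bowtie2 and MACS2 for chromatin, on dm6. The sources used here give no versions, annotation or pooling. The deposited peak lists give a fold (ratio) of wild-type over mutant chromatin and −log10 p- and q-values, and a strain tag in the authors' peak names is not the mutant name of the labels.

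Differences were taken within a table as log2(FPKM + 1), a pseudocount of 1 FPKM, among 10654 genes in embryos and 10672 in heads that reached 1 FPKM in any group. The p53-dependent difference (wild type minus mutant) was called where the wild-type response passed in the same direction. FPKM is scaled per library, so RNA content per cell is not seen. Depth was read from FPKM steps in single-transcript genes of 800 to 3000 bp, with lengths reduced by 150 bp (100 to 250 gave 18200000 to 25100000 fragments in embryos and 10200000 to 15600000 in heads). Exact binomial intervals (95%) used the median Ensembl 115 transcript length. The step was tested on simulated data. Members and lists were chosen with earlier results of these data known. Members named with values were the 5 with the largest difference in each comparison, and others were named after their values were seen. Replicate spread cannot be measured. Python 3.11.15, pandas 2.3.3 and scipy 1.17.1 were used.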

Additional observations from a re-analysis of the deposited data

Results flagged for a closer look

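The difference between mutant and wild type had opposite signs in embryos and heads for 3 genes, with counting intervals that exclude 1 and ratios of at least 1.2-fold in both tissues, and the difference between tissues was not tested. CycB3 in mock libraries was at −0.32 in embryos and 0.94 in heads. Mcm7 was at −0.48 in embryos and 0.49 in heads in mock libraries, and at −0.38 and 0.53 in irradiated ones. Rbf2 in mock libraries was at −0.35 in embryos and 0.68 in heads. Mcm7 reached 1 FPKM in heads only in the 2 mutant libraries and so was tested there only through the libraries where it was high, which makes its head differences a description. It rests on 16 and 40 fragments in mock heads, and Rbf2 on 22 and 64.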

How the results depend on the processing

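Counts of members were recomputed with other settings, and no direction reversed. At 1.5-fold 2 members passed between the strains in irradiated embryos, 1 after irradiation of wild-type heads, 1 in the p53-dependent response of heads, and 6 between the strains in both mock and irradiated heads. With a pseudocount of 0.1 FPKM 1 member passed 2-fold in irradiated wild-type heads and 1 in the p53-dependent response (polo in both), 5 in mock and 4 in irradiated heads between the strains. Scaling by median ratios, no filter and a filter on the mean kept every count within 1.5 times. Members with a peak within 1 kb of the listed locus numbered 0 in embryos and 1 in heads (Orc2). Within 5 kb of an annotated start, a setting chosen after seeing the data, they numbered 0 in embryos and 1 in heads (CycD), and no member had a summit within 1 kb of such a start. The count near the listed locus was 1 in embryos at a −log10 q-value of 5 or more. Among genes at 1 FPKM or more in any group, the median percentile of the members in heads was 24.2. No paired analysis was possible because each group has 1 library, and leaving out a library was not possible for the same reason. The planned promoter motif description was not made. In heads, depth limits members with under 100 fragments, whose counting intervals are wide.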
